A study of Mus musculus with 9 samples.

Results

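A small class of promoters in oviductal muscle cells carried peaks of H3K4me1 without any peak of H3K27ac. It held 333 of 20722 protein-coding genes on the 19 autosomes, or 1.61%. A gene was placed in it when the 1 kb either side of any of its protein-coding start sites overlapped an H3K4me1 peak in at least 2 of 3 replicate lists and overlapped no H3K27ac peak in 3 replicate lists and 1 pooled list. The genes were thus chosen by these peak calls, and the presence and absence of the marks at their promoters is a description and not a finding.

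Primary muscle cells were isolated by enzymatic digestion from the oviducts of mated mice aged 8 to 12 weeks, genotype WT, on day 2 (D2) of pregnancy. They were plated for 4 h and then 2 h in serum-containing medium before fixation, and each ChIC-Seq library was made from 50000 cells. In ChIC-Seq an antibody directs MNase fused to protein A to the chromatin, and the released fragments are sequenced. H3K27ac, H3K4me1 and an IgG control were each profiled in 3 samples, 9 in all, of the same genotype and day, with no treatment other than mating. The labels do not say whether the replicates came from separate mice, so their spread may be technical, and nothing in them gives the purity of the cells.

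H3K4me1 is the monomethylated form of lysine 4 of histone H3. It is known from enhancers and from the flanks of active promoters, where trimethylated lysine 4 takes its place over the start site itself. H3K27ac, acetylated lysine 27, is deposited by the acetyltransferases CBP and p300 and is found at active enhancers and promoters. Regions with H3K4me1 and without H3K27ac are often described as primed. Neither RNA nor other histone marks were measured in these samples.

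The replicate libraries held 40551842 to 78891920 fragments and their IgG controls 3110985 to 3713369, which limits how finely a weak region can be separated from background. H3K4me1 replicates 1 and 2 and H3K27ac replicate 2 were called against IgG replicate 2, H3K27ac replicate 1 against IgG replicate 1, and replicate 3 of both marks against IgG replicate 3. The labelled cell type was compared with marker genes. Of 8 smooth muscle markers, 4 had a promoter H3K27ac peak in at least 2 of 3 replicates: Acta2, Tagln, Des and Smtn. Myh11, the smooth muscle myosin heavy chain, had none in any replicate, and Cnn1, Lmod1 and Actg2 had it in 1. All 7 stromal markers, among them Vim, Pdgfra and Col1a1, had H3K27ac in 3 of 3 replicates. None of 8 epithelial markers had it in at least 2, while 2 of 6 blood markers (Ptprc and Adgre1) and 3 of 5 endothelial markers did. Over all genes a single replicate had H3K27ac at 54.1% to 56.4% of promoters. The smooth muscle and endothelial counts lie near that share and say little on cell type. The part of other cell types in the class was not tested.

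The promoter sequences of 5 of the genes are shown because they had high H3K4me1 peaks on CpG-rich and on other sequence. They are the 250 bases upstream of the main start site in the GRCm38 reference, 5′ to 3′ on the gene's strand, with every CpG dinucleotide in capitals. Msx3 and Ybx2 had CpG-rich promoters, defined as a GC content of at least 50% and an observed over expected CpG ratio of at least 0.6 in the 500 bp either side of the start. Ptgir, Defb29 and Papln did not meet this definition. Within each kind these genes were among the highest by mean percentile of fold enrichment among those with H3K4me1 in all 3 replicates, passing over stretches that hold an exon.
Msx3, chr7:140049090-140049339, minus strand: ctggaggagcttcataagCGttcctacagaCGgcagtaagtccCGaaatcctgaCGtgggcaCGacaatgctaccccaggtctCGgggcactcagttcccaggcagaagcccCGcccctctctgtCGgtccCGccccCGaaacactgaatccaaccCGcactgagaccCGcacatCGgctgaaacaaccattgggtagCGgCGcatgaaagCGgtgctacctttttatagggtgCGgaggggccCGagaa
Ybx2, chr11:69935546-69935795, plus strand: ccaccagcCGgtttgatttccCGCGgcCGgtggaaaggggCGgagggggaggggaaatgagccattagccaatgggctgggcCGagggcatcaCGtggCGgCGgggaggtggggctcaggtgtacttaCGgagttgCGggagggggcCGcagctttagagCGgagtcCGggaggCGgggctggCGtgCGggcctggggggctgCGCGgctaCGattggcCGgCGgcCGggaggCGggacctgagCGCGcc
Ptgir, chr7:16906240-16906489, plus strand: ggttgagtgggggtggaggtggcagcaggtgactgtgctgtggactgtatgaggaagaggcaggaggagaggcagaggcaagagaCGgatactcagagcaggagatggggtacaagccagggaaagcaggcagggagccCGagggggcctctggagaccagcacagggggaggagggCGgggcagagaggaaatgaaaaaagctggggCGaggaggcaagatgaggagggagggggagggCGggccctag
Defb29, chr2:152540099-152540348, minus strand: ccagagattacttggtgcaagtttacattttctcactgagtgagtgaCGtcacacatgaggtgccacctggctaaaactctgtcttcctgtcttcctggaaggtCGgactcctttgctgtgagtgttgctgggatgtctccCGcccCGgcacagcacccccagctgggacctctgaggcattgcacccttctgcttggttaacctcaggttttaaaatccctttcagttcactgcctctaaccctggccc
Papln, chr12:83763384-83763633, plus strand: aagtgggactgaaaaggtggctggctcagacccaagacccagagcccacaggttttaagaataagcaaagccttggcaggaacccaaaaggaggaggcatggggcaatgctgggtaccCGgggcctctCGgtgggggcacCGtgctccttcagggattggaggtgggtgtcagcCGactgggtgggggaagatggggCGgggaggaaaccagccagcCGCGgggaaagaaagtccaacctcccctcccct
The stretch upstream of Msx3 held 18 CpG, yet none of its bases lay in an H3K4me1 peak of any replicate, the peaks being elsewhere in the window. In Ybx2, which encodes a germ cell RNA-binding protein, 26 CpG were present, and 118 and 35 of the 250 bases were covered in replicates 1 and 2, with none in replicate 3. The Ptgir stretch held 5 CpG and was covered over all 250 bases in each of the 3 replicates. Defb29 held 4 CpG and was fully covered in replicates 1 and 2 alone, and Papln held 7 and was fully covered in replicate 3 alone. The letters therefore show that H3K4me1 in this class lay both on CpG-poor upstream sequence and beside CpG-dense sequence.

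Across all 20722 genes, 44.6% met the H3K4me1 criterion and 64.7% had H3K27ac in at least 1 of the 4 lists. Of the 13413 genes with H3K27ac, 66.5% met the H3K4me1 criterion, and of the 7309 without it, 4.56% did. H3K4me1 in the class was less complete. It was present in all 3 replicates for 87 of the 333 genes (26.1%), against 64.2% of the 9251 genes that met the H3K4me1 criterion whatever their H3K27ac. A further 162 had it in replicates 1 and 2, 57 in replicates 1 and 3 and 27 in replicates 2 and 3. The pooled H3K4me1 list, called on the 3 replicates together, had a peak at 249 of the 333 promoters, and at 58.0% of all genes. Replicates 1, 2 and 3 had a promoter peak at 306, 276 and 171 of the 333, and at 46.5%, 42.9% and 42.6% of all genes. Replicates 1 and 2 share an IgG control, and the part of that in their joint calls was not tested.

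The class had close neighbours on both sides of its limits. Without H3K27ac, 548 genes had H3K4me1 in exactly 1 replicate, such as Pipox, Diras2 and Atp6v1e2, whose single peaks were at the 99.96th, 99.56th and 99.46th percentile of replicate 1. With H3K4me1 in at least 2 replicates, 575 genes had H3K27ac in exactly 1, such as Lhpp, Adgrb2 and Fabp5, each in replicate 2. Of those 575 genes, 314 had H3K27ac in replicate 2 alone, 130 in replicate 1 alone and 131 in replicate 3 alone. Another 59 were kept out by the pooled H3K27ac list only. Over all genes H3K27ac was called at 56.4%, 55.2% and 54.1% in replicates 1, 2 and 3 and at 57.6% in the pooled list. The class would hold 515 genes without H3K27ac replicate 2. With H3K4me1 peaks held to a −log10 p-value of 1.3 or more it would hold 50 of the 333, and with the same asked of both marks 99, of which 50 are among the 333.

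How far a replicate outside the choice carried the same calls was measured by choosing genes from 2 replicates and reading the one left out. For H3K4me1, 114, 144 and 249 genes without H3K27ac were chosen with replicates 1, 2 and 3 left out. A peak was present in the replicate left out at 76.3%, 60.4% and 34.9% of them, against 6.92%, 3.73% and 3.90% of the other genes without H3K27ac. The difference was 52.4 ± 19.5 percentage points (SD, n = 3), and an exact sign-flip test over the 3 replicates, two-sided, gave p = 0.25, the smallest it allows. Each replicate left out had the mark more often at the chosen genes. The chosen genes with a peak were the same 87 each time, those with H3K4me1 in all 3 replicates. The 3 shares thus restate the counts by replicate given above and are not separate observations, so no conclusion is drawn from the test. Replicate 3, the only H3K4me1 replicate called against IgG replicate 3, had the lowest share. That follows from the 162 genes with H3K4me1 in replicates 1 and 2 alone.

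For H3K27ac the genes were chosen in the same way. Genes with H3K4me1 in at least 2 replicates and no H3K27ac in the 2 replicates read numbered 522, 706 and 523 with replicates 1, 2 and 3 left out. H3K27ac appeared in the replicate left out at 24.9%, 44.5% and 25.05% of them, against 57.2%, 55.6% and 54.9% of all other genes. That difference is not read as a result, because the chosen genes had to lack H3K27ac in the replicates read and most of the other genes did not. Genes with H3K4me1 in fewer than 2 replicates and no H3K27ac in the 2 replicates read gained it in the left-out replicate at 8.27%, 3.37% and 4.83%. Promoters with H3K4me1 and no H3K27ac in 2 replicates therefore had H3K27ac in another replicate more often than promoters with little H3K4me1, in each of the 3 replicates. H3K27ac replicate 2 shared its IgG control with H3K4me1 replicates 1 and 2, and replicate 3 of both marks shared another. The part of shared controls in this difference was not tested. Absence of H3K27ac means that no peak was called at this depth, not that the mark was absent.

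**Figure D1:**
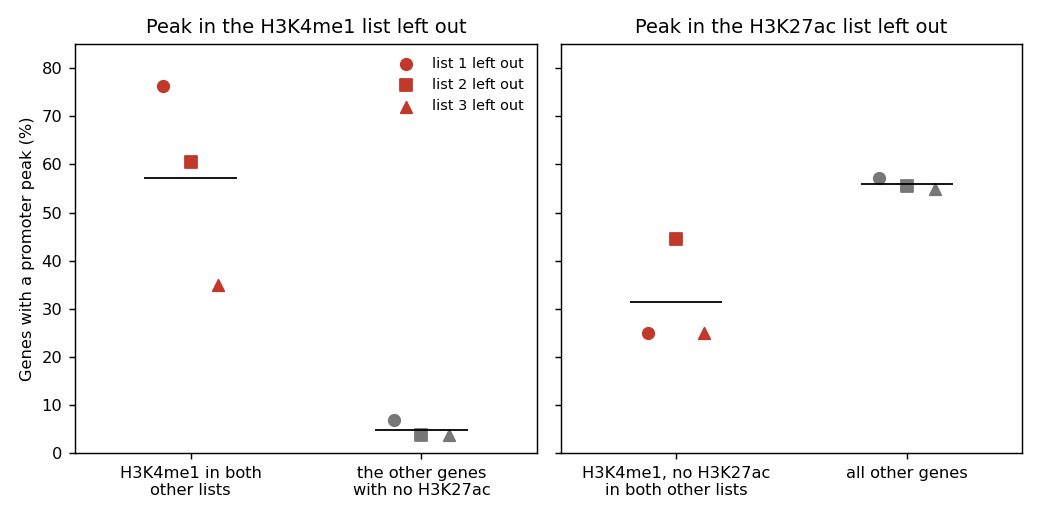
Share of genes (%) with a promoter peak in the replicate list left out, for H3K4me1 (left) and H3K27ac (right). Symbols are the 3 replicates left out, bars their mean. For H3K4me1 the chosen genes lie at 34.9% to 76.3% and the other genes without H3K27ac at 3.73% to 6.92%. The chosen genes with an H3K4me1 peak are the same 87 in each case. For H3K27ac the chosen genes lie at 24.9% to 44.5% and all other genes at 54.9% to 57.2%, an order that the choice in part fixes.

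The H3K4me1 peaks of the class were lower and narrower than those at the 5172 promoters with both marks in all 3 replicates. The median fold enrichment, which is the ratio of pileup to local background with 1 added to each, was 1.70, 1.61 and 1.67 in replicates 1, 2 and 3. At promoters with both marks it was 1.80, 1.80 and 1.81. The median peak width was 623 ± 36.8 bp against 1513 ± 149 bp (SD, n = 3). Ranked among all peaks of the same list, the median peak of the class was at the 70.2nd, 54.3rd and 60.7th percentile of fold enrichment, and that of promoters with both marks at the 82.7th, 81.0th and 81.2nd. A −log10 p-value of at least 1.3 was reached by 22.4 ± 3.12% of the peaks at the class and 45.2 ± 2.92% of those at promoters with both marks (SD, n = 3). None of these ranges overlapped between the sets of genes. Genes with H3K4me1 in at least 2 replicates and H3K27ac in exactly 1 were not higher than the class. The median over genes of the mean percentile was 56.1 for these 575 genes, 58.9 for the 246 genes of the class with H3K4me1 in 2 replicates, 67.9 for the 87 with it in 3 and 80.1 for promoters with both marks. These values are given without a test, since H3K4me1 calls chose both sets and the promoters with both marks had to have a peak in every replicate.

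The position of H3K4me1 relative to the start site also differed. In the class, coverage was highest at 100, 100 and −300 bp from the main start site in replicates 1, 2 and 3. At promoters with both marks it was highest at 1300, 1300 and 1500 bp downstream. At the start site itself 30.9%, 25.8% and 14.7% of the class were covered, 23.8 ± 8.29% (SD, n = 3), against 32.0 ± 4.16% of promoters with both marks. Coverage at the start was 2.76 ± 0.985 times that at 2 kb downstream in the class and 0.671 ± 0.106 times at promoters with both marks (SD, n = 3). The dip over the start went with CpG content. Of the promoters with both marks, the 3638 CpG-rich ones were covered at 41.7 ± 2.08% 500 bp upstream, 27.5 ± 4.81% at the start and 53.8 ± 2.30% at 2 kb downstream, while the 1534 others were covered at 39.6 ± 1.35%, 42.7 ± 2.62% and 34.0 ± 1.304% and had no dip (SD, n = 3). At the same positions the CpG-rich promoters of the class were covered at 24.5 ± 11.0%, 22.3 ± 10.5% and 6.45 ± 3.52%, and its other promoters at 17.4 ± 4.32%, 24.7 ± 7.36% and 10.0 ± 1.27%. Both sets of genes were chosen for a peak within 1 kb of a start, so coverage near the start is in part fixed by the choice. Of the class's highest promoter peaks, 38.0 ± 2.44% spanned a start, 34.3 ± 1.34% lay downstream and 27.8 ± 3.57% upstream, and at promoters with both marks 41.0 ± 3.81%, 33.0 ± 2.51% and 25.9 ± 1.33% did (SD, n = 3). The centre of the peak lay within the window for 82.7 ± 1.73% of the class and 57.4 ± 3.64% of promoters with both marks. The class's peaks were narrower, and a narrow peak that overlaps the window more readily has its centre inside it. This difference in centres was thus not read as one of position.

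**Figure D2:**
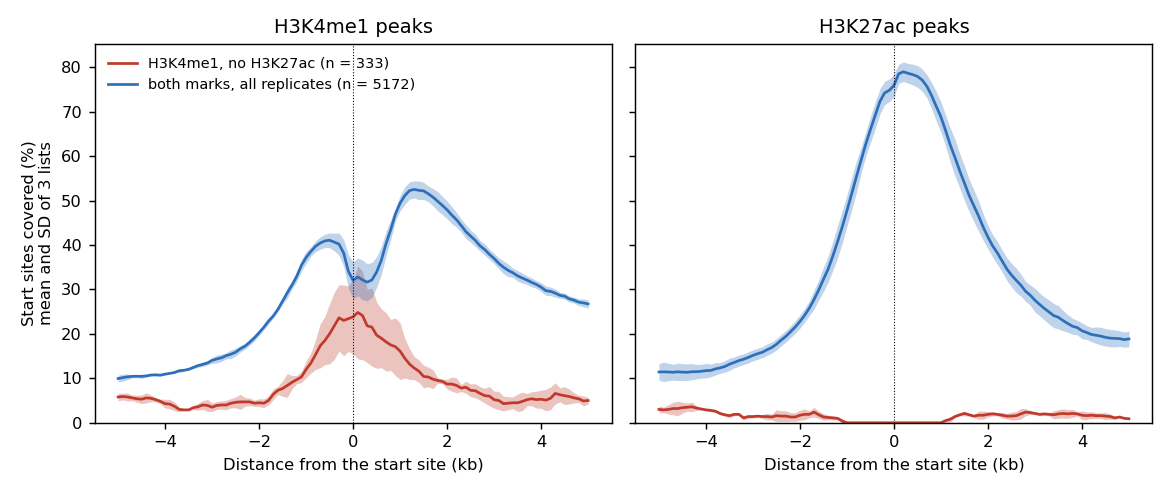
Share of main start sites (%) covered by H3K4me1 peaks (left) and H3K27ac peaks (right) against the distance from the start in kb, negative upstream. Lines are the mean of 3 replicate lists and bands the SD, for 333 promoters with H3K4me1 and no H3K27ac and 5172 with both marks. In the class H3K4me1 coverage has 1 rise around the start, at 23.8% there, while promoters with both marks dip to 32.0% at the start. H3K27ac is at 0 within 1 kb in the class because the rule required it.

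Base composition was not used to choose the genes. Of the 333 promoters 124 were CpG-rich (37.2%, Wilson 95% interval 32.2 to 42.5). The share was 70.3% of promoters with both marks, 63.3% of the 594 with H3K27ac in at least 2 replicates and no H3K4me1 in any list, 9.63% of the 6179 with neither mark, and 46.1% of all genes. The class thus lay between the promoters with H3K27ac and those with neither mark. The median observed over expected CpG ratio was 0.486, with quartiles of 0.257 and 0.694, and the median over all genes was 0.572. Among genes without H3K27ac, 29.9% were CpG-rich with H3K4me1 in 3 replicates, 39.8% in 2, 32.1% in 1 and 10.5% in none. The share was thus highest with 2 replicates and lowest with none.

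**Figure D3:**
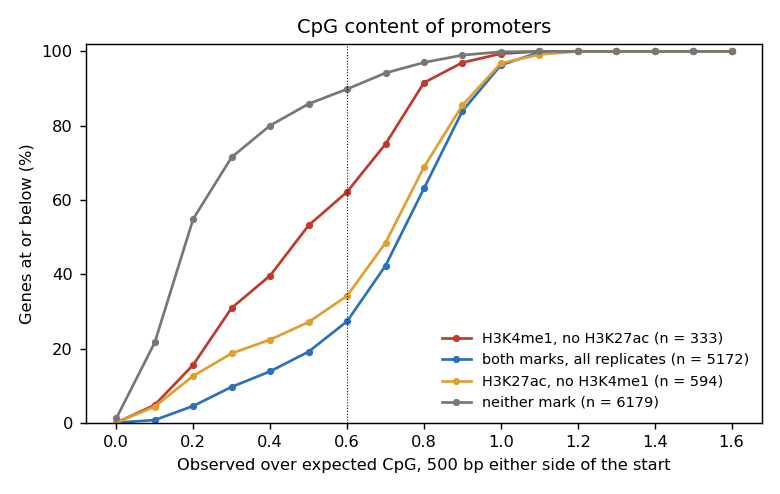
Cumulative share of genes (%) against the observed over expected CpG ratio in the 500 bp either side of the main start, for 4 classes of promoters. The dotted line marks 0.6. The class with H3K4me1 and no H3K27ac (median 0.486) lies between promoters with H3K27ac (medians 0.739 and 0.707) and promoters with neither mark (median 0.182).

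Within the class the 124 CpG-rich and 209 other promoters were compared. The start was covered at 22.3 ± 10.5% of the CpG-rich and 24.7 ± 7.36% of the other promoters (SD, n = 3), a difference smaller than the spread between replicates. At 1 kb upstream 8.87%, 8.87% and 7.26% of the CpG-rich promoters were covered in replicates 1, 2 and 3, against 16.3%, 14.8% and 11.5% of the others. At 500 bp upstream the order was the other way, with 36.3%, 22.6% and 14.5% against 21.5%, 17.7% and 12.9%. H3K4me1 was in all 3 replicates at 26 of the 124 and at 61 of the 209. The CpG-rich genes were longer, with a median of 28221 bp against 17314 bp, and their starts lay farther from the nearest pooled H3K27ac peak, with a median of 33653 bp against 19806 bp. Among short motifs searched on both strands of the 250 bases upstream, TATAAA was present at 14.1% of the class and 11.5% of all genes, CCAAT at 30.3% and 35.6%, GGGCGG at 45.3% and 40.7%, CANNTG at 66.4% and 63.4%, and TGANTCA at 4.80% and 5.85%. In genes without promoter H3K27ac that did not meet the H3K4me1 criterion, the same motifs were at 18.7%, 36.2%, 18.2%, 72.1% and 8.30%. The CArG box, bound by serum response factor at smooth muscle genes, was found at 4 of the 333 (1.20%) and at 1.22% of all promoters. These matches are letters in a window and were not read as binding sites.

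H3K27ac was called elsewhere in some of these genes, away from their starts. Of the 333 genes 109 (32.7%) had H3K27ac peaks in the gene body outside the promoter windows in at least 2 of 3 replicates, against 41.6% of all genes and 11.8% of genes with neither promoter mark. Replicates 1, 2 and 3 gave 135, 116 and 107 genes. The median distance from a start to the nearest pooled H3K27ac peak was 23675 bp, with quartiles of 9289 and 53724 bp, and it was 59700 bp for genes with neither mark. The rule left out every gene with an H3K27ac peak in its window, so these distances are set beside those of other genes without one. For 53 genes (15.9%) the nearest peak was within 5 kb, against 7.20% of the 6976 genes with no promoter H3K27ac that did not meet the H3K4me1 criterion. For 46 (13.8%) it was beyond 100 kb, against 36.6% of those genes. Kif26b, a kinesin family member, had the nearest peak at 1072 bp, just outside the window, followed by Krt19 at 1214 bp and Fxyd3 at 1345 bp. Cdh9, a cadherin, was farthest at 1846923 bp, then Lrfn5 at 1179133 bp and Pcdh10 at 990959 bp, the last a protocadherin. Gene length bears on the gene body count, and the median length was 18134 bp in the class, 17596 bp over all genes and 8094 bp for genes with neither mark.

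Most of the genes stood alone on the genome. Their windows formed 331 separate loci, and windows were shared between members for Sult2b1 and Lmtk3 and for Sncg and Mmrn2 only. A window was shared with some other protein-coding gene for 3.60% of the class, 23.5% of promoters with both marks and 14.8% of all genes. Genes without promoter H3K27ac were near the class. The share was 3.98% with neither mark and 4.31% for those that did not meet the H3K4me1 criterion. The rule leaves out any shared window in which a neighbour's promoter carries H3K27ac. The start lay inside another protein-coding gene for 31 of 333 (9.31%), near the 10.4% of all genes. The share of a chromosome's genes in the class ran from 0.763% on chromosome 17 to 3.13% on chromosome 18.

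Among genes with H3K4me1 in all 3 replicates and the pooled list, the highest mean percentile of fold enrichment belonged to Ptgir (ENSMUSG00000043017.9; GRCm38, chromosome 7, 16906490 to 16910905, plus strand). Ptgir encodes the prostacyclin receptor, a G protein-coupled receptor known to relax smooth muscle through cyclic AMP. Its promoter peaks had fold enrichments of 1.98, 1.98 and 1.88 in replicates 1, 2 and 3, at the 94.5th, 94.8th and 88.5th percentile of each list. They covered 60.2%, 63.2% and 41.1% of its windows and included the main start in all 3 replicates. In the pooled list the same promoter was at the 65.2nd percentile, with a fold enrichment of 1.94. The nearest pooled H3K27ac peak lay 5766 bp away. It was the 1 gene of the class among 26 prostaglandin synthesis, transport and receptor genes (3.85%, Wilson 95% interval 0.682 to 18.9), an interval that includes the 1.61% of all genes. Of the 26, 6 had both marks in all replicates and 4 had neither, beside 5172 and 6179 of all 20722 genes.

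The other 14 genes of the highest 15 covered varied functions. Defb29, a beta-defensin gene (chromosome 2, 152538714 to 152540098, minus strand), had fold enrichments of 1.88, 1.91 and 1.94. Sema5b, which encodes a semaphorin that guides axons, had 1.79, 2.06 and 1.96, and was at the 98.2nd percentile of the pooled list. Papln, which encodes the matrix protein papilin, had 2.03, 1.88 and 1.84, and its windows were among the 5 most widely covered of the class, at 46.2%, 52.9% and 82.4%. Col9a2, a chain of the cartilage collagen type IX, had 2.08, 2.02 and 1.76. Fgf9, a fibroblast growth factor of mesenchyme, had 1.84, 1.88 and 1.90. Adamtsl2, which encodes a secreted protein that binds fibrillin and latent TGF-beta, had 2.22, 2.05 and 1.69. Pcdh1, a protocadherin, had 2.18, 2.47 and 1.71, with peaks only 171 and 235 bp wide in replicates 1 and 2. By percentile replicate 3 was the lowest for Ptgir, Papln, Col9a2, Pcdh1, Gfra3, Adamtsl2, Sult2b1, Lmtk3 and Msx3, and the highest for Defb29, Add2, Fgf9 and Gm6133. Sult2b1 and Lmtk3, which lie head to head on chromosome 7, were called on the same peaks, so they are 1 locus. Only 3 of the 15 promoters were CpG-rich, those of Sema5b, Pcdh1 and Msx3, and 2 of the genes had H3K27ac in the gene body.

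**Figure D4:**
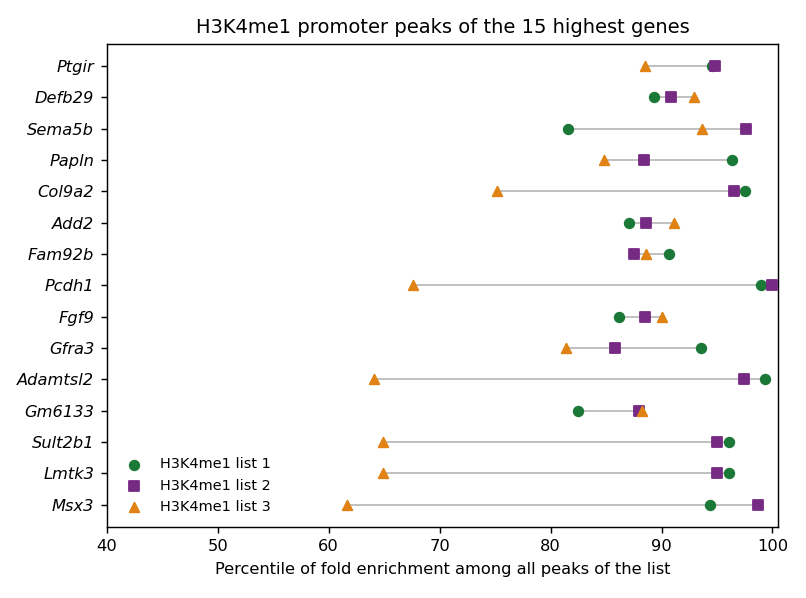
Percentile of fold enrichment of the H3K4me1 promoter peak among all peaks of its list, for the 15 genes highest in the class. Symbols are the 3 replicate lists and the line joins the lowest and highest. Ptgir and Defb29 lie above the 88th percentile in all 3, while Msx3 lies at the 98.7th in list 2 and the 61.6th in list 3.

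Of the 5 genes with the widest cover, Papln and Fam92b were also among the 15 of highest mean percentile. A830031A19Rik was covered over 100%, 84.9% and 30.8% of its window, by a peak of 8339 bp in replicate 1 and 617 bp in replicate 3. Ptprq, a receptor-type phosphatase gene, was covered over 63.3%, 69.4% and 48.6%, with the start inside the peak in each replicate, although its fold enrichments of 1.56, 1.45 and 1.54 were low. Fam92b was covered over 35.2%, 78.6% and 61.1%, also with its start inside all 3 peaks. Gpr39, a G protein-coupled receptor sensitive to zinc, was covered over 81.1% and 100% in replicates 1 and 2 and had no peak in replicate 3.

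Several developmental transcription factors were in the class. Of 180 genes of the forkhead, Sox, Pax, Gata, T-box, Lim, Nkx, sine oculis homeobox, Irx, Dlx, Pou and Hox families, 16 were in the class, or 8.89% against 1.61% of all genes. Of the 109 of them without H3K27ac, 14.7% were in the class, against 4.56% over all genes without H3K27ac. In 12 of the 16 the promoter was CpG-rich, and H3K4me1 was in all 3 replicates in 4 and in the pooled list in 10. CpG-rich genes without H3K27ac gave 124 of 978 whatever their family, so the 4.56% is a low base for such promoters. The part of CpG content in the share of these factors was not tested. No test over the lists was made, and they were chosen with earlier results of these data known.

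The forkhead, Sox, Pax, Gata and T-box families gave 9 of 87 measured, among them Foxa2, Foxb2, Foxd1, Foxq1, Sox2, Sox11, Sox21 and Tbx1. Foxb2 had the highest peaks, with fold enrichments of 2.05, 2.10 and 1.62, and its start was covered in replicate 3 alone. Foxa2, a factor of endoderm and of gland epithelium, had 1.90 and 1.60 in replicates 1 and 2 and no peak in replicate 3. Its start lay in both peaks, and the nearest pooled H3K27ac peak was 5770 bp away. Sox2, a factor of stem and neural progenitor cells, had 1.63 and 1.61 in replicates 1 and 3 and no pooled peak, and its nearest pooled H3K27ac peak lay 316117 bp away.

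Lhx6, Nkx2-2, Nkx6-1 and Pou4f1, all homeobox genes of the nervous system, were 4 of 54 measured. Lhx6 was the highest, with fold enrichments of 2.08, 1.74 and 1.78 and H3K4me1 in all 3 replicates. Pou4f1 was among the lowest of the class, at the 5.91st and 4.93rd percentile of replicates 1 and 2. Of 39 Hox genes, which pattern the body axis, 3 were in the class, or 18.75% of the 16 without H3K27ac. Over all genes without H3K27ac the share was 4.56%. Another 11 Hox genes had H3K27ac with no H3K4me1, beside 594 of all 20722 genes. Hoxd4 had fold enrichments of 1.70, 1.66 and 1.83. Hoxd13, the most 5′ gene of its cluster, had 1.74 and 1.54 in replicates 1 and 2 and none in replicate 3. Hoxc4 also had no peak in replicate 3, and its nearest pooled H3K27ac peak was 2840 bp away.

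Genes of neurons and glia were represented by 4 of 36 measured (11.1%, against 1.61% of all genes), or 14.3% of the 28 without H3K27ac, against 4.56% over all genes without it. Gad2, which encodes a glutamate decarboxylase that makes GABA, had fold enrichments of 1.79, 1.85 and 1.65. Neurog2, a proneural factor, had 1.79 and 1.74 in replicates 1 and 2, with 72.5% and 100% of its window covered. Olig1, a factor of oligodendrocytes, had 1.73 and 1.57 in the same replicates, and the synaptic gene Snap25 had peaks at the 55.0th and 9.02nd percentile. Gad2 alone of the 4 had a peak in replicate 3. The other cell type lists held 0 to 2 genes each. Oviduct and gland epithelium had 2 of 32 (Foxa2 and Krt19; 6.25%, Wilson 95% interval 1.73 to 20.1), or 16.7% of its 12 genes without H3K27ac. Skeletal and heart muscle had 2 of 52 (Ryr1 and Mb), or 5.56% of 36 without H3K27ac, and blood cells 0 of 41, of which 21 lacked it. Endothelium had 1 of 24 (Erg) and liver and pancreas 1 of 30 (Ptf1a), or 11.1% of 9 and 4.35% of 23 without H3K27ac. Krt19, a keratin of simple epithelia, had fold enrichments of 1.99 and 2.15 in replicates 1 and 3, at the 94.8th and 99.0th percentile, and no peak in replicate 2.

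Of 69 receptors controlling contraction 3 were in the class (4.35%, Wilson 95% interval 1.49 to 12.0), an interval that includes the 1.61% of all genes. The 3 were 10.0% of the 30 without H3K27ac, against 4.56% over all such genes. Avpr1a, the vasopressin V1a receptor, had fold enrichments of 1.68, 1.56 and 1.65, with 65.1%, 6.50% and 60.1% of its window covered. Lpar3, a lysophosphatidic acid receptor known for its role in embryo spacing, had 1.62 and 1.50 in replicates 1 and 2, where 88.7% and 78.5% of its window was covered, and no peak in replicate 3 or the pooled list. Its nearest pooled H3K27ac peak was 2569 bp away, and it had H3K27ac in the gene body. Hrh1, the histamine H1 receptor, had 1.66 and 1.96 in replicates 1 and 3.

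Of 92 potassium channel genes 5 were in the class (5.43%, against 1.61% of all genes): Kcna4, Kcne4, Kcng4, Kcnj2 and Kcnj3. They were 8.77% of the 57 without H3K27ac, against 4.56% over all such genes. Kcng4, a modifier subunit, had fold enrichments of 1.71, 1.70 and 1.70, the most even of the 5. Kcnj3 had 1.72, 1.53 and 1.40, and at the 1.11th percentile of replicate 3 was close to the limit of that list. Kcne4, an accessory subunit, had 1.80 and 1.70 in replicates 2 and 3, and its nearest pooled H3K27ac peak was 1828 bp away. None of the 5 promoters was CpG-rich. Of 25 calcium channel genes the class held Cacna1d, a pore subunit of L-type channels, with 2.09 and 2.03 in replicates 1 and 3 and none in replicate 2. No sodium or TRP channel of 36 was in it. Orphan and adhesion G protein-coupled receptors gave 5 of 89, among them Gpr39, Gpr63, Gpr135 and Adgrd1.

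Secreted and matrix genes gave 3 of 43 collagens (6.98%, against 1.61% of all genes), 2 of 20 Fgf ligands (Fgf9 and Fgf15) and 1 of 19 Wnt ligands (Wnt6). These were 21.4% of 14, 18.2% of 11 and 9.09% of 11 genes without H3K27ac, against 4.56% over all such genes, and rest on 1 to 3 genes each. The collagens were Col9a2, Col2a1 and Col13a1, the first pair being chains of cartilage collagens. Col2a1 had fold enrichments of 1.83 and 1.72 in replicates 1 and 2 and no peak in replicate 3. The list of mesenchymal and matrix genes gave 0 of 33, but only 2 of the 33 lacked H3K27ac. Immune genes included 3 of 53 chemokines and their receptors (Ccl17, Cx3cl1 and Cxcl13) and 3 of 39 Toll-like and C-type lectin receptors (Clec4e, Clec12b and Tlr9), but 0 of 77 interleukins and their receptors. The first 2 lists were at 5.66% and 7.69%, against 1.61% of all genes, and at 13.6% and 23.1% of their genes without H3K27ac, against 4.56%. None of these 6 promoters was CpG-rich or had its start in a peak of any replicate, and each had H3K4me1 in 2 replicates. The pooled H3K4me1 list had a peak at 2 of the 6. The median of their mean percentiles was 30.9, against 61.3 over the class, so these shares rest on few and mostly low calls. Among metabolic genes Cyp27b1, the 1-alpha-hydroxylase that activates vitamin D, had 1.87, 1.86 and 1.57, although its pooled peak was at the 0.0728th percentile.

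Of 44 gene lists 11 had no gene in the class. In some of them few genes lacked H3K27ac and could have met the rule, as for the smooth muscle contractile genes (2 of 20 lacked it), cytosolic ribosomal proteins (9 of 96), histones (7 of 67) and mitochondrial complex I (1 of 44). More lacked it among the interleukins and their receptors (35 of 77) and serpins (38 of 60). Olfactory and vomeronasal receptors mostly had neither mark (974 of 1127 and 299 of 329) and gave few. Olfactory receptors gave 1 of 1127 (0.0887%), Olfr1259, and vomeronasal receptors 2 of 329. These were 0.101% of 986 and 0.662% of 302 genes without H3K27ac. Solute carriers gave 8 of 372 (2.15%), zinc finger genes 3 of 385 (0.779%), cytochromes P450 2 of 100 and keratins 1 of 53 (1.89%), and the Wilson 95% interval of each share included the 1.61% of all genes. Of their genes without H3K27ac these were 5.56% of 144, 5.88% of 51, 2.60% of 77 and 2.17% of 46. The share over all genes without H3K27ac was 4.56%.

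**Figure D5:**
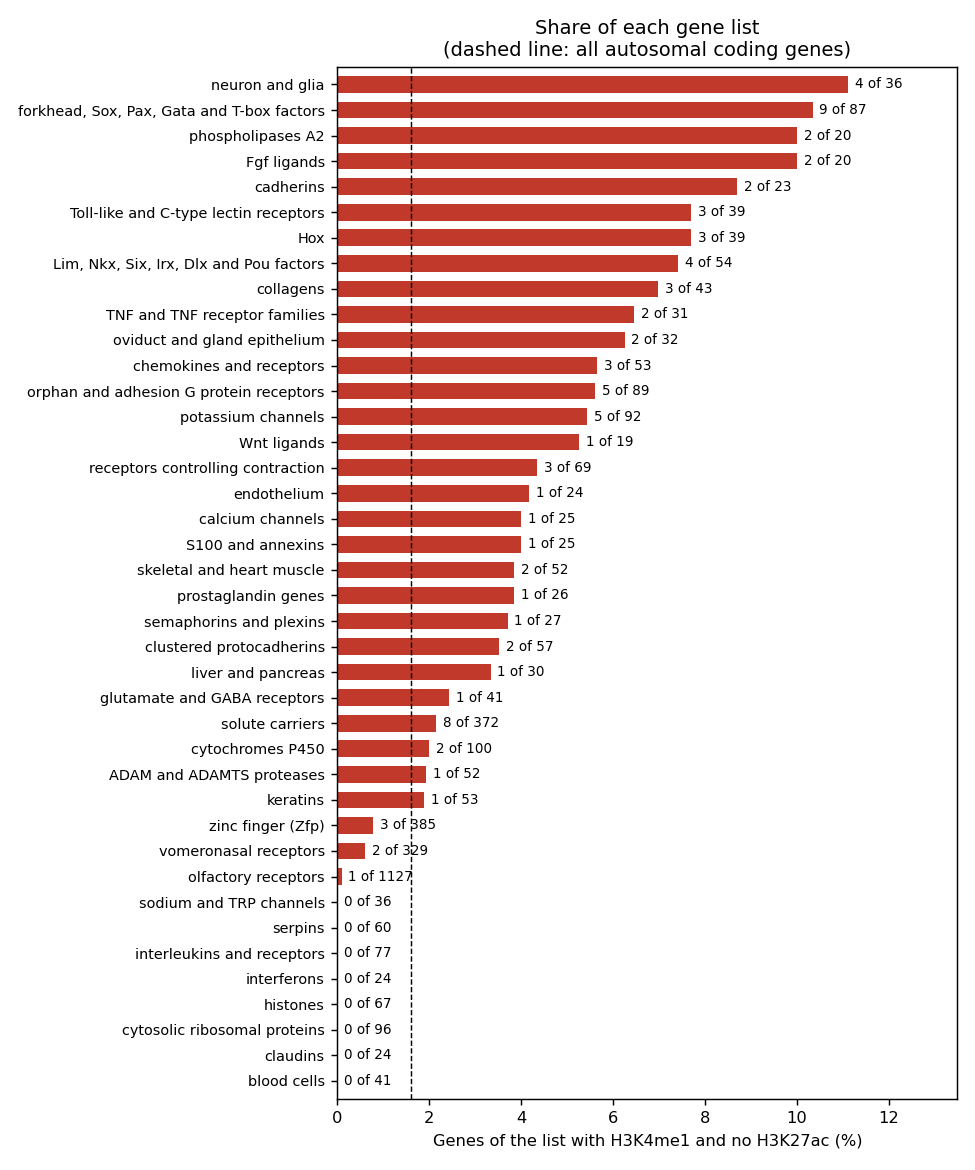
Share (%) of the measured genes of each list that had H3K4me1 and no H3K27ac at the promoter, for the lists with at least 5 genes free of H3K27ac. The dashed line is 1.61%, the share of all autosomal protein-coding genes, and the counts stand beside the bars. Neuronal and forkhead, Sox and related factor lists lead at 11.1% and 10.3%, olfactory receptors are at 0.0887%, and 8 lists are at 0.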

How the data were processed

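H3K27ac, H3K4me1 and IgG were profiled by ChIC-Seq in primary oviductal muscle cells, with 3 samples each. Per the labels, the authors used cutadapt, Bowtie2 and MACS2 on GRCm38.p5. Per the file headers, peak calling by the authors used MACS 2.2.7.1 with broad regions, paired-end fragments, IgG as control and p-value cutoffs of 0.05 (strong) and 0.1 (weak). The larger library was scaled to the smaller, and the input files were named as free of duplicates. The deposited pileup is a coverage signal. The deposited fold enrichment is its ratio to the local background, after 1 is added to both. Deposited p-values are given as −log10, and the q-value column was not used. The 1 pooled list of each mark was called on its 3 replicates together. IgG entered through these calls alone. Other settings are not given in the sources used here. The study read for style used uterine stroma and gave no value or method.

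Peaks were intersected with start sites of protein-coding transcripts of GENCODE mouse release 21 (52092 start sites on the 19 autosomes), with a window of 1 kb either side and an overlap of at least 1 bp. The main start of a gene was the one shared by most of its transcripts, and in a tie the most upstream. The 848795 peaks checked lay within the chromosome ends of the reference. Cover, CpG content, motifs and distances were computed in Python 3.11.15 with numpy 2.4.6 and pandas 2.3.3. Where a promoter had several peaks in a list, the highest fold enrichment was used, and its percentile was taken among all peaks of that list. The intersection was tested on simulated data. Held-out H3K4me1 replicates were compared by an exact sign-flip test over 3 replicates, two-sided. Intervals are Wilson 95% intervals, which treat genes as independent and do not cover errors of peak calling.

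The genes of the class and the gene lists were chosen with earlier results of these data known. Named were the 15 genes with H3K4me1 in all 3 replicate lists and the pooled list that had the highest mean percentile, members of the gene lists (for families found by symbol, all up to 6 members and otherwise the 4 highest), the 5 with the widest cover, the 3 nearest to and 3 farthest from H3K27ac, and 3 beside each limit. Other named genes were chosen after their values were seen. Sequences were those of the 3 CpG-rich and 3 other genes with the highest mean percentile, passing over 1 gene with an exon in the stretch and genes on chromosome 18. Some genes that met these rules, and 1 of the sequences, are not reported here. Alternatives were other windows, overlaps, −log10 p-value filters, numbers of replicates and single start sites.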

Additional observations from a re-analysis of the deposited data

Results flagged for a closer look

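The rule covered autosomes only. On chromosome X, outside it, 6 of 948 protein-coding genes (0.633%) met the same criteria: Dach2, Gab3, Map7d2, Mcf2, Slc7a3 and Tmem255a. They are given because the comparisons did not use that chromosome, and their number marks no excess over the autosomes. The share is below the 1.61% of autosomal genes, and the difference was not tested.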

How the results depend on the processing

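The size of the class depended most on which H3K4me1 peaks counted. It was 87 with H3K4me1 in all 3 lists, 50 with H3K4me1 peaks held to a −log10 p-value of 1.3 or more and 99 with peaks of both marks held to it. Leaving out 1 replicate gave 114 to 515 genes, with 114 and 144 without H3K4me1 replicates 1 and 2 and 515 without H3K27ac replicate 2. Windows of 500 bp and 2 kb kept 233 and 262 of the 333, and 16 of the 333 were kept in all 14 alternatives, Ptgir, Defb29, Papln and Dll4 among them. The CpG-rich share was 29.9% with H3K4me1 in all 3 lists, and 27.2% to 37.8% without single replicates. Cover of the start was 36.0% with all 3 lists, and 23.4% to 34.5% without single replicates. H3K27ac in the gene body was found at 38.2% and 26.4% with windows of 500 bp and 2 kb, 27.6% with all 3 lists, 42.9% with the most upstream start alone, 18% and 6.06% with the p-value filter on H3K4me1 alone and on both marks, and 26.3% to 32.5% without single replicates. The filter on both marks also removes H3K27ac peaks from gene bodies. In all, 72 of 90 recomputed values stayed within limits set around the reported one, 18 moved and 0 reversed. The held-out differences of both marks were judged by sign alone, whatever their size, and only they could be labelled reversed. The held-out H3K4me1 difference kept its direction under each alternative run on it. No paired analysis was possible because no test compared the marks and replicate numbers do not tie the samples of different marks together. Depth, in particular of IgG, limits what a missing H3K27ac call can mean.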
